A study of Mus musculus with 12 samples.

Results

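Gene expression in mouse T helper 17 (Th17) cells that had received ILA alone was set directly against that in Th17 cells that had received GSK805 alone. The comparison took in every gene with a mean of at least 1 FPKM (fragments scaled to exon length and to the number of fragments mapped) in at least 1 of the 2 groups, which gave 13213 of the 29522 genes listed. Of these, 12055 reached that level in both groups, 783 only with ILA and 375 only with GSK805. The genes nearest the limit were Zcchc3, Gstp2 and Zfp940 just inside it (1.0003, 1.0006 and 1.0009 FPKM in their higher group) and Cradd, Gbp5 and Nudt7 just outside it (0.99892, 0.99864 and 0.99638 FPKM). The cells of every group came from spleens of C57BL/6J mice labelled WT: naive CD4+ T cells were isolated with magnetic beads, activated with a CD3/CD28 cocktail and cultured in RPMI medium with CytoBox Th17, a commercial set of polarising factors. ILA was given at 200 uM and GSK805 at 0.5 uM, so that each compound was measured at a single concentration and the concentrations differ. Each group had 3 libraries, which the labels call biological replicates without naming animals, so that p-values speak only to the spread among these libraries. The 3 vehicle libraries and the 3 libraries with both compounds, given in the same medium and with the same activation, are quoted for reference.

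Th17 cells are the CD4+ T cells that secrete interleukin-17A and interleukin-17F, cytokines that defend mucosal surfaces and drive several inflammatory diseases. Their programme is run by nuclear receptors of the ROR family together with STAT3, BATF, IRF4 and c-Maf. GSK805 is a small molecule that inhibits ROR activity in these cells. ILA is taken here to stand for indole-3-lactic acid, a product of bacterial tryptophan breakdown. Such indoles are ligands of the aryl hydrocarbon receptor (AhR), a sensor that moves into the nucleus, pairs with ARNT and switches on cytochrome P450 genes.

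Reads assigned to genes, recovered from the FPKM values, came to 17.81 to 23.37 M in the 6 libraries, and 1 read in a gene of 1 kb was worth 0.0427 to 0.056 FPKM. The defining markers of the labelled cell type were present: the 6 T cell markers summed to 688 to 734 FPKM with ILA and 405 to 435 FPKM with GSK805, while Cd8a, which marks CD8 T cells, stood at 0.0127 to 0.129 FPKM. All 6 T cell markers were higher with ILA. ILA replicate 2 stood apart in holding globin RNA: Hbb-bs was at 23.3 FPKM and Hba-a1 at 18.2 FPKM there, and both were at 0 in the other 5 libraries. Erythroid and platelet markers otherwise summed to at most 2.77 FPKM, with Ppbp at 0. Without ILA replicate 2 48.9% of genes were called, inside the range of 48 to 50.9% for leaving out each of the 6 libraries. Markers of CD8 T and NK cells summed to 34.9 to 37.3 FPKM with ILA and 14.5 to 16.6 FPKM with GSK805, nearly all from Klrd1, while Cd8b1 was higher with GSK805 and Klrb1c was at 0 there. Myeloid markers summed to 11.3 to 13.3 and 7.85 to 7.99 FPKM, with Cd68 higher with ILA, Csf1r higher with GSK805 and S100a8 at 0. Stromal markers summed to 10.1 to 11.4 and 3.45 to 3.78 FPKM, most of it Pecam1. B cell markers (2.47 to 2.86 and 1.76 to 2.69 FPKM), gamma delta T cell markers (0.603 to 0.994 FPKM with ILA and up to 1.63 FPKM with GSK805) and dendritic cell markers (0.798 to 0.851 and 1.04 to 1.83 FPKM, Siglech and Clec9a at 0) were low in both groups. The part of these cells in the results below was not tested.

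The groups differed over much of the transcriptome. A limma model on log2(FPKM + 1) called 7098 of the 13213 genes at a Benjamini-Hochberg adjusted p below 0.05 (53.7%), of which 3675 were higher with ILA (27.8%) and 3423 higher with GSK805 (25.9%). These 3 shares are the background against which the gene groups below are read. A low gene can pass the filter through its higher group alone, which favours genes that differ, so counts within a group describe the genes tested and not every gene listed. The balance of the calls depends on scaling: 51.8% of them were higher with ILA here, against 45.6% after quantile normalization, 44.2% with libraries centred on their median gene and 43.8% after removal of GC content and length trends. The 3 libraries of either compound lay wholly above the 3 of the other for 8109 genes (61.4%), 4190 with ILA above and 3919 with GSK805 above. Differences of at least 2-fold were more often towards ILA, with 479 genes against 166, and so were those of at least 4-fold, with 32 genes against 13. Fold values throughout are ratios of FPKM + 1 on the log2 scale of the model, which understates the difference for genes with low values. At the other end, 2859 genes (21.6%) had no call and a 95% interval within which neither compound exceeded the other by more than 25% on this scale. For genes with low values that limit allows a larger difference in FPKM. Another 3256 genes had no call and a wider interval, for which these data do not say whether the compounds differ. Bulk RNA of this kind cannot tell a change in the share of cells that express a gene from a change in RNA per cell.

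**Figure D1:**
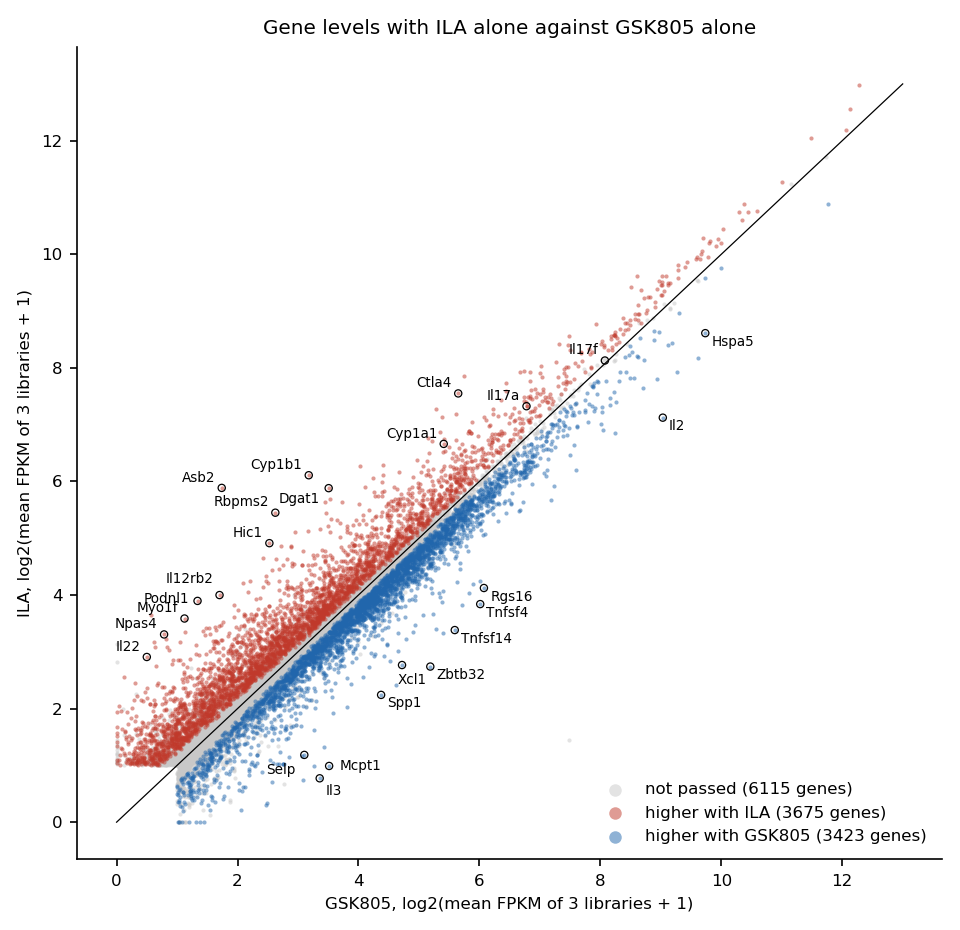
Mean level of each of the 13213 genes with GSK805 (horizontal axis) and with ILA (vertical axis), both as log2(mean FPKM of 3 libraries + 1), with red for the 3675 genes higher with ILA, blue for the 3423 higher with GSK805 and grey for genes not passed. Genes on the line had equal means: Il17f lies close to it, Asb2 and Cyp1b1 lie far above it, and Il2 and Tnfsf4 far below.

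The genes that define Th17 cells did not go together. Of 7 Th17 cytokine and chemokine genes, 3 were higher with ILA (Il17a, Il22 and Ccl20), 2 higher with GSK805 (Il21 and Il9) and 2 did not pass (Il17f and Csf2). Their median log2 difference was 0.23, against 0.01 over all genes. Il17a, which encodes interleukin-17A, stood at 153, 173 and 153 FPKM in the 3 ILA libraries, 97.7, 122 and 107 FPKM with GSK805 and 634, 803 and 832 FPKM with vehicle. Every ILA library was above every GSK805 library, and all 6 were far below vehicle. The difference was 1.46-fold (log2 0.55, SE 0.119, adjusted p = 0.00255). Il17f, its neighbour on the chromosome and partner in the interleukin-17A/F dimer, stood at 271, 294 and 272 FPKM with ILA and 248, 276 and 282 FPKM with GSK805, against 564, 652 and 656 FPKM with vehicle. The groups overlapped, and the log2 difference of 0.06 had a 95% interval of -0.10 to 0.21 (adjusted p = 0.533), which leaves room for a difference of less than 25%.

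Both genes lie on chromosome 1 in the build GRCm38, Il17a (ENSMUSG00000025929) from 20730905 to 20734496 on the plus strand and Il17f (ENSMUSG00000041872) from 20777146 to 20790617 on the minus strand, in the gene models of GENCODE vM21. The 250 bases before the RefSeq start of Il17a (chr1:20730655-20730904, plus strand, GRCm38.p6) are shown because ROR receptors act on this gene. Capitals mark the only match to AGGTCA, the core of the element that ROR receptors bind, here on the opposite strand with its first base 120 bases before the start.
Il17a: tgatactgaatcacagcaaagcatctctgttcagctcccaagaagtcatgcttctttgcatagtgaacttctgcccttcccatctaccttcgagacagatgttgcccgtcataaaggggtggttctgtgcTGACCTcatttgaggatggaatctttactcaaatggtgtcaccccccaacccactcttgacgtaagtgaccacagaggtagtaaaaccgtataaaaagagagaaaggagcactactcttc
The same search, on both strands, found AGGTCA in the 250 bases before any start of 3 of the 7 Th17 cytokine and chemokine genes (Ccl20, Il17a and Il17f, 42.9%). It was in 14% of all 32851 RefSeq promoters. These were counted singly and not by gene, so the gene share favours genes with several starts. A match is a description of the letters and not of binding.

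Il22 and Ccl20 were the Th17 products most in favour of ILA. Il22, a cytokine that acts on epithelial cells and is known as an AhR-dependent gene, stood at 7.71, 7.38 and 4.44 FPKM with ILA and 0.231, 0.539 and 0.472 FPKM with GSK805, with vehicle at 1.42, 2.9 and 4.59 FPKM. The ILA libraries were above all GSK805 libraries by 5.22-fold (log2 2.38, SE 0.279, adjusted p = 3.26e-05). Ccl20, the chemokine that attracts CCR6-bearing cells, stood at 17.2, 16.7 and 15.8 FPKM with ILA and 6.01, 6.42 and 6.63 FPKM with GSK805, 2.39-fold apart (adjusted p = 0.000216). Il21, the cytokine with which Th17 cells sustain themselves, went the other way at 20.02, 20.6 and 18.7 against 31.8, 34.2 and 33.8 FPKM, 1.65-fold higher with GSK805 (adjusted p = 1.61e-05). Vehicle held 71.2 FPKM of it, above both compounds. Il9 was higher with GSK805 at 0.863, 0.992 and 0.941 against 3.27, 3.61 and 1.42 FPKM (adjusted p = 0.0379), a call lost without ILA replicate 1, 2 or 3 or GSK805 replicate 1 or 2 (adjusted p 0.0645 to 0.126) and with no filter (0.0873). Csf2, which encodes GM-CSF, had means of 14.7 ± 4.54 and 12.2 ± 3.04 FPKM (SD, n = 3) and did not pass (adjusted p = 0.508).

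Among 10 receptors of the Th17 pathway, 6 were higher with ILA, 3 higher with GSK805 and 1, Il12rb1, did not pass (median log2 difference 0.29). Il23r, the receptor for the cytokine that maintains Th17 cells, stood at 1.6, 1.69 and 2.25 FPKM with ILA and 0.584, 1.02 and 0.651 FPKM with GSK805, 1.63-fold apart (adjusted p = 0.00111), with vehicle at 8.17 FPKM. Ccr6, the homing receptor of these cells, stood at 1.62, 2.22 and 1.81 and 0.755, 1.21 and 0.985 FPKM (1.45-fold, adjusted p = 0.00188) against 4.8 FPKM with vehicle. Both receptors were thus lower with GSK805 than with ILA, and lower still with the 2 compounds together, at means of 0.295 and 0.181 FPKM. Il17re, a receptor chain for interleukin-17C, stood at 1.55, 1.02 and 1.23 FPKM with ILA and 0.109, 0.11 and 0.073 FPKM with GSK805 (2.06-fold, adjusted p = 7.2e-05). The 2 chains of the TGF-β receptor, which receives a polarising signal, parted. Tgfbr1 was higher with GSK805, with means of 5.49 FPKM with ILA and 11 FPKM with GSK805 (adjusted p = 5.44e-07), and Tgfbr2 was higher with ILA, with means of 28.9 and 23.1 FPKM (adjusted p = 0.000148). Il6ra, the interleukin-6 receptor, was 1.41-fold higher with ILA (adjusted p = 0.000122).

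Of 11 transcription factors of the Th17 programme, 6 were higher with ILA, 2 higher with GSK805 and 3 did not pass (median log2 difference 0.43). Maf, which encodes c-Maf, differed most among those higher with ILA: 36.5, 37.8 and 34.1 FPKM with ILA, 13.8, 13.8 and 11.5 FPKM with GSK805 and 9.66, 10.9 and 10.8 FPKM with vehicle (2.65-fold, log2 1.41, SE 0.0754, adjusted p = 7.72e-08). Rora, which encodes the nuclear receptor RORα, was at 12.8, 12.7 and 12.6 FPKM with ILA and 20.9, 21.4 and 21.8 FPKM with GSK805, 1.63-fold higher with GSK805 (adjusted p = 4.96e-06). The 2 groups did not overlap, and the ILA libraries were the lower ones. Irf4, a factor induced by T cell receptor signals, was at 159, 167 and 175 against 298, 306 and 313 FPKM (1.83-fold higher with GSK805, adjusted p = 1.22e-07), and Hif1a, the oxygen-sensing factor, at 104, 105 and 106 against 71, 69.6 and 69.3 FPKM (1.49-fold higher with ILA, adjusted p = 7.1e-07). Batf, Runx1 and Ahr did not pass. Ahr had means of 5.32 ± 0.715 and 4.42 ± 0.317 FPKM (SD, n = 3, adjusted p = 0.0663), a miss that turned into a call without ILA replicate 3 (0.00953) and with voom on recovered reads (0.0165).

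**Figure D2:**
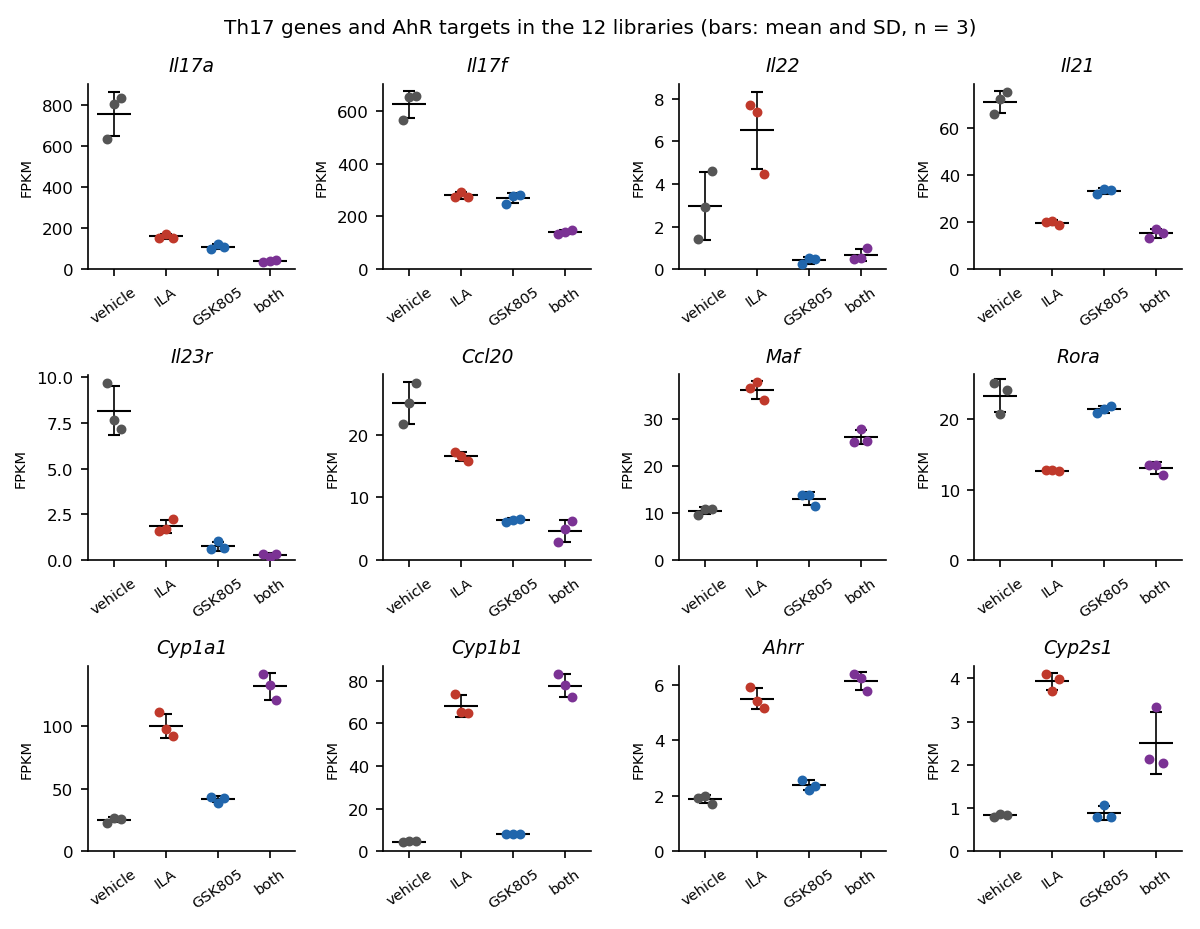
FPKM of 8 Th17 genes and 4 AhR target genes in each of the 12 libraries, by group (vehicle, ILA, GSK805 and both compounds). Points are libraries and bars show the mean and SD of 3. Il17f libraries overlap between ILA and GSK805, Maf is highest with ILA alone, and the 4 AhR targets are high in the 2 groups that received ILA.

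Targets of AhR separated the compounds more clearly. Of 8 target genes listed, 6 passed the filter: 4 were higher with ILA, none was higher with GSK805 and 2, Tiparp and Nqo1, did not pass (median log2 difference 1.10, against 0.01 over all genes). Cyp1b1, which encodes a cytochrome P450 enzyme, stood at 73.9, 65.2 and 65 FPKM with ILA, 8.04, 7.98 and 8.13 FPKM with GSK805 and 4.05, 4.57 and 4.87 FPKM with vehicle. ILA and GSK805 differed 7.61-fold (log2 2.93, SE 0.0695, adjusted p = 9.18e-10). Cyp1a1, the enzyme most often used as a readout of AhR, stood at 111, 97.7 and 92.2 FPKM with ILA, 43.3, 38.7 and 42.6 FPKM with GSK805 and 22.8, 26.7 and 25.6 FPKM with vehicle (2.38-fold between the compounds, adjusted p = 3.61e-07). The GSK805 libraries were above all vehicle libraries for both enzymes, although well below ILA. Ahrr, a repressor of AhR that AhR induces, was at 5.92, 5.41 and 5.17 against 2.56, 2.2 and 2.36 FPKM (1.92-fold, adjusted p = 1.03e-06), and Cyp2s1, another P450 gene, at 4.09, 3.71 and 3.98 against 0.787, 1.07 and 0.781 FPKM (2.63-fold, adjusted p = 3.96e-06). Tiparp, an AhR-induced ADP-ribosyltransferase, had means of 63.8 ± 7.17 and 66.7 ± 2.68 FPKM (SD, n = 3, adjusted p = 0.49). Nqo1, a quinone reductase, had 1.61 ± 0.356 and 2.81 ± 1.59 FPKM (SD, n = 3, adjusted p = 0.108), which became a call higher with GSK805 after quantile normalization (0.0425) and with voom (0.0487). Cyp1a2 and Aldh3a1 were under the filter. Of AhR and its partners, Arnt was higher with ILA, with means of 11.2 and 8.71 FPKM (adjusted p = 0.00036), while the chaperones Ptges3 and Hsp90ab1 were 1.19-fold and 1.18-fold higher with GSK805 (adjusted p = 0.00149 and 5.62e-05).

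The bases before the starts of Cyp1b1 (ENSMUSG00000024087, chr17:79715062-79715311, minus strand) and Cyp1a1 (ENSMUSG00000032315, chr9:57697363-57697612, plus strand) are shown because Cyp1b1 differed most among AhR targets and Cyp1a1 is the usual readout of the receptor. Cyp1a1 was chosen after the promoters had been seen. It stands in place of Cyp2s1, which differed more than Cyp1a1 and whose window holds no match. Each window shown is 250 bases of RefSeq sequence of GRCm38.p6 that overlaps no annotated exon of GENCODE vM21, written in the direction of the gene. Capitals mark GCGTG, the core of the AhR response element, or its reverse complement.
Cyp1b1: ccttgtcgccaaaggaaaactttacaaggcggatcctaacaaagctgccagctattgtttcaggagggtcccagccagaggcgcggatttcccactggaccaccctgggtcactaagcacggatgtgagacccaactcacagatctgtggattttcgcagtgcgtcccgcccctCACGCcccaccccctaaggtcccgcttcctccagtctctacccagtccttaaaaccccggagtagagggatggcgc
Cyp1a1: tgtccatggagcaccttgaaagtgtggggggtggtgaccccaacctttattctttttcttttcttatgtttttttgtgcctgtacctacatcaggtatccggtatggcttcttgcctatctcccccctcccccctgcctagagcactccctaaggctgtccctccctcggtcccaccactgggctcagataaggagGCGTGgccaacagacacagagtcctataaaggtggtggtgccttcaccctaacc
Each window holds 1 match, with its first base 76 bases before the start of Cyp1b1, on the opposite strand, and 54 bases before the start of Cyp1a1, on the same strand. Of the 6 tested targets 4 held GCGTG on either strand in the window of any start (66.7%): Ahrr, Cyp1a1, Cyp1b1 and Tiparp. The Cyp2s1 window held none. Over all 32851 promoters, counted singly, the share was 28.2%, so counting by gene favours genes with several starts. By gene, the share was also high in a group that went the other way, with 11 of 17 genes of the endoplasmic reticulum list (64.7%).

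The 10 largest differences towards ILA, among called genes with no overlap between groups and a mean of at least 5 FPKM, were those of Asb2, Cyp1b1, Rbpms2, Podnl1, Npas4, Myo1f, Hic1, Il22, Dgat1 and Il12rb2. Asb2, a substrate adaptor of a ubiquitin ligase, stood at 54.7, 60.1 and 59.7 FPKM with ILA, 2.29, 2.33 and 2.39 FPKM with GSK805 and 3.41, 4.54 and 4.5 FPKM with vehicle. The 17.7-fold difference (log2 4.15, SE 0.0854, adjusted p = 3.86e-10) was the largest of the 10, and vehicle lay between the compounds. Asb2 (ENSMUSG00000021200) lies on chromosome 12 from 103321142 to 103356001. Rbpms2, an RNA-binding protein, was at 40.7, 45.6 and 41.8 against 5.66, 5.33 and 4.52 FPKM (7.1-fold). Npas4, a transcription factor best known from stimulated neurons, was at 8.52, 7.57 and 10.6 against 0.857, 0.635 and 0.679 FPKM (5.7-fold). Hic1, a transcriptional repressor, and Dgat1, the enzyme of the last step of triglyceride synthesis, had means of 29.1 against 4.76 and 58 against 10.4 FPKM. Myo1f, an unconventional myosin, and Podnl1, a matrix protein, were 5.53-fold and 5.87-fold higher with ILA. Adjusted p-values of these 10 lay between 3.86e-10 and 3.26e-05.

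The 10 largest differences towards GSK805 under the same rule were those of Mcpt1, Il3, Zbtb32, Tnfsf14, Tnfsf4, Spp1, Xcl1, Rgs16, Selp and Il2. Il2, the growth factor of activated T cells, stood at 117, 136 and 161 FPKM with ILA, 457, 542 and 570.3 FPKM with GSK805 and 592, 619 and 622 FPKM with vehicle (3.77-fold higher with GSK805, log2 -1.92, SE 0.123, adjusted p = 4.89e-07). Il3, a haematopoietic cytokine, was at 0.736, 0.676 and 0.713 against 9.3, 6.51 and 12 FPKM (5.86-fold), and vehicle held 9.97, 12.6 and 18.7 FPKM. For both cytokines the ILA libraries lay far below vehicle and the GSK805 libraries much nearer to it. Tnfsf4, which encodes OX40 ligand, was at 13, 14.7 and 12.3 against 57.4, 64.7 and 68.7 FPKM (4.51-fold, adjusted p = 9.85e-09), here with vehicle in between at 34.8, 33.4 and 36.6 FPKM. Tnfsf14, which encodes LIGHT, was at 8.19, 9.87 and 10.2 against 42.2, 50.8 and 48.8 FPKM (4.63-fold). Zbtb32, a repressor of T cell cytokine genes, was at 4.51, 5.35 and 7.18 against 32.9, 35.6 and 37.8 FPKM (5.52-fold). Spp1, which encodes osteopontin, and Rgs16, a regulator of G protein signalling, had means of 3.73 against 19.7 and 16.4 against 66.4 FPKM. Mcpt1, a mast cell protease gene, was at 1.37, 0.262 and 1.33 FPKM with ILA and 11.1, 10.1 and 10.1 FPKM with GSK805, and Selp, the adhesion molecule P-selectin, was 3.79-fold higher with GSK805. Adjusted p-values of these 10 lay between 6.52e-09 and 3.07e-05.

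As a group, cytokines and ligands of the TNF family were higher with GSK805. Of 23 listed, 18 passed the filter: 4 were higher with ILA, 12 higher with GSK805 and 2 did not pass (median log2 difference -0.65). Besides those above, Ifng, the Th1 cytokine, was at 0.965, 1.07 and 1.08 FPKM with ILA and 4.68, 2.99 and 3.38 FPKM with GSK805 (2.27-fold, adjusted p = 3.93e-05), and Il10, an anti-inflammatory cytokine, at 1.77, 1.83 and 1.28 against 3.59, 3.41 and 3.42 FPKM (1.71-fold, adjusted p = 0.000987). Cd40lg, the ligand with which T cells help B cells, was 2.02-fold higher with GSK805 (adjusted p = 2.93e-05). The 4 higher with ILA were Il16, Ltb, Tgfb1 and Lif: Ltb, which encodes lymphotoxin β, had means of 244 and 106 FPKM, and Lif 35.9 and 17.8 FPKM. All 8 tested genes of the granzyme and cytotoxic list, of 13 listed, were higher with GSK805 (median -0.84), among them the chemokines Ccl4 (16.6, 17.5 and 17.5 against 54.7, 59.9 and 60.4 FPKM, 3.26-fold) and Ccl3 (2.85-fold) and the granzyme gene Gzmb (1.92-fold), with adjusted p = 4.57e-07, 1e-05 and 0.00624. For Il2, Il3, Ccl3 and Ccl4 the GSK805 means were below those of vehicle, and the ILA means lower still. GSK805 was not called against vehicle for Il2 or Il3 (limma adjusted p = 0.214 and 0.201). The natural killer cell marker Klrd1 lay the other way, at 32.2 to 35.1 FPKM with ILA and 9.66 to 12.4 FPKM with GSK805.

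Genes of T cell activation and costimulation leaned the same way. Of 19, 12 were higher with GSK805, 5 higher with ILA and 2, Egr1 and Icos, did not pass (median -0.38). Egr2, a factor induced through the T cell receptor, was at 16.4, 17.5 and 16.5 against 32.6, 32.6 and 34.6 FPKM and Tnfrsf9, the costimulatory receptor 4-1BB, at 13.9, 12.9 and 15.3 against 26.8, 27.8 and 28.1 FPKM (1.93-fold and 1.9-fold higher with GSK805, adjusted p = 4e-08 and 2.49e-07). Nr4a1, an orphan nuclear receptor induced by the same signals, went the other way at 256, 278 and 245 against 120.0, 134 and 129.7 FPKM (2.02-fold higher with ILA, adjusted p = 1.36e-06), as did Tnfrsf18, which encodes GITR, at 52, 49.8 and 50.5 against 25, 22.6 and 22.5 FPKM (2.13-fold, adjusted p = 4.43e-08). Inhibitory receptors were divided, with 5 of 9 tested genes higher with ILA and 4 higher with GSK805 (median 0.27). Ctla4, which competes with CD28 for its ligands, stood at 186, 192 and 181 FPKM with ILA and 54.9, 49.2 and 43.4 FPKM with GSK805 (3.75-fold, adjusted p = 3.24e-08), with vehicle at 83.4, 91.2 and 99.1 FPKM between them. Lag3, a receptor for MHC class II, was 2.37-fold higher with ILA (adjusted p = 1.34e-07). Havcr2, which encodes TIM-3, was at 1.38, 0.782 and 0.927 FPKM with ILA and 4.99, 5.85 and 6.26 FPKM with GSK805 (3.32-fold higher with GSK805, adjusted p = 2.86e-07), and Cd200 was 1.67-fold higher with GSK805 (adjusted p = 3.45e-06).

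Receptors and products of Th1 cells separated. Of 11 Th1 genes, 8 passed the filter, with 6 higher with ILA and 2 higher with GSK805 (median 1.45). Il12rb2, a chain of the interleukin-12 receptor, stood at 14.9, 15.8 and 14.3 FPKM with ILA and 2.57, 2.04 and 2.16 FPKM with GSK805 (4.92-fold, adjusted p = 5.19e-09). Il18r1 and Il18rap, the chains of the interleukin-18 receptor, stood at 24.8, 23.2 and 23.9 against 5.81, 4.85 and 5.03 FPKM and 9.23, 9.59 and 9.52 against 2.31, 2.15 and 1.86 FPKM (4.02-fold and 3.36-fold, adjusted p = 4.99e-09 and 7.94e-08). For these 3 receptor genes the GSK805 libraries lay near vehicle, whose means were 1.99, 5.25 and 2.1 FPKM. Stat4, which relays interleukin-12, and Runx3, a factor that acts with T-bet, were higher with ILA as well (2.78-fold and 2.69-fold, adjusted p = 1.5e-07 and 7.96e-08). The 2 higher with GSK805 were Cxcr3, the Th1 chemokine receptor, at 0.321, 0.123 and 0.259 FPKM with ILA and 3.6, 4.26 and 5.83 FPKM with GSK805 (4.46-fold, adjusted p = 8.2e-07), and the chemokine Ccl5 (means of 2.79 and 11 FPKM). Tbx21, which encodes T-bet, was under the filter in both groups, with means of 0.0874 FPKM with ILA and 0.55 FPKM with GSK805. Eomes and Hlx were under it as well. Ifng, counted above with the cytokines and not in this list, was higher with GSK805. The list median thus does not stand for every gene of the Th1 programme.

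Foxp3, the factor that defines regulatory T (Treg) cells, stood at 1.88, 1.58 and 1.58 FPKM with ILA and 1.89, 1.75 and 1.86 FPKM with GSK805, with overlapping groups (log2 -0.08, 95% interval -0.30 to 0.14, adjusted p = 0.504). Other genes of the Treg list differed: of 11 listed, 7 passed the filter, with 4 higher with ILA, 1 (Il10) higher with GSK805 and 2 not passed (median 0.46). Lrrc32, which displays latent TGF-β on the cell surface, was at 2.12, 2.51 and 2.5 against 0.337, 0.344 and 0.345 FPKM, Itgae, the integrin chain CD103, at 6.55, 7.46 and 7.06 against 2.41, 1.93 and 2.31 FPKM, and Nt5e, the adenosine-forming enzyme CD73, at 90.6, 94.7 and 90.0 against 44.5, 42.4 and 40.2 FPKM (2.51-fold, 2.5-fold and 2.14-fold, adjusted p = 7.19e-07, 3.61e-07 and 1.45e-08). Of the follicular helper T cell list, 6 of 9 genes passed the filter, 3 higher with ILA and 2 higher with GSK805 (median 0.12). Tox2, a nuclear factor of these cells, differed most of them and was 3.51-fold higher with ILA (adjusted p = 1.04e-08). Sh2d1a and Bcl6 were also higher with ILA, Bcl6 by a log2 difference of only 0.23. Cd40lg and Pdcd1 were higher with GSK805, and Icos did not pass. Chemokine receptors and adhesion molecules were mostly higher with ILA, 12 of 18 tested against 4 (median 0.41). Gpr183, which guides cells along oxysterols, was 3.56-fold higher with ILA, Gpr15, a homing receptor of colonic T cells, 2.31-fold and Itga4, an integrin chain of gut homing, 2.3-fold (adjusted p = 5.91e-08, 1.93e-08 and 1.25e-06).

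Genes of naive and quiescent T cells were split, 6 of 13 higher with ILA and 5 higher with GSK805 (median 0.04). The transcription factors Tcf7 (338, 343 and 326 against 182, 173 and 170.3 FPKM), Lef1 and Satb1 were 1.91-fold, 2.02-fold and 2.57-fold higher with ILA, whereas Foxp1 and Bach2 were higher with GSK805 (1.62-fold for Foxp1 and 1.49-fold for Bach2). The GIMAP GTPases, a family on chromosome 6 that supports lymphocyte survival, were higher with ILA in 8 of 8 genes (median 1.06). Gimap4 stood at 240.4, 240.2 and 213 FPKM with ILA and 56.7, 49 and 51.9 FPKM with GSK805, and vehicle was below both at 26, 27.5 and 30.9 FPKM (4.34-fold between the compounds, adjusted p = 4.99e-09). Gimap7 and Gimap3 followed with 3.42-fold and 2.23-fold (adjusted p = 2.26e-07 and 4.99e-09). Of 17 genes of the T cell receptor and its proximal signalling, 12 were higher with ILA, 1 (Fyn) higher with GSK805 and 4 did not pass (median 0.26). Cd4 stood at 121, 118 and 111 FPKM with ILA and 40.9, 39.2 and 38.9 FPKM with GSK805 (2.89-fold, adjusted p = 2.47e-09), Cd3d, a chain of the receptor complex, was 2.06-fold higher (adjusted p = 4.97e-07), and Fyb, an adaptor for integrin activation, was at 75.7, 80.1 and 72.3 against 16.7, 14.7 and 14.2 FPKM (4.75-fold, adjusted p = 3.98e-09). Zap70, Lcp2 and Themis were among those that did not pass. Several of these genes are also the T cell markers given above, so the group and the marker sum are not separate measurements.

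Signal-dependent factors also divided by family member. Of 11 tested STAT and SOCS genes, 8 were higher with ILA and 3 higher with GSK805 (median 0.46). Socs3, an inhibitor of interleukin-6 and STAT3 signals, was at 24.4, 22.8 and 18.9 against 9.82, 8.19 and 6.01 FPKM (2.58-fold higher with ILA, adjusted p = 1.86e-05). Pim1, a kinase induced by STAT5, was at 338, 349 and 357 against 578, 579 and 582 FPKM (1.67-fold higher with GSK805, adjusted p = 1.96e-08). Stat5a and Stat5b, which encode closely related factors, parted: means with ILA and with GSK805 were 72.3 and 106 FPKM for Stat5a and 67.2 and 44.6 FPKM for Stat5b, and both were called (adjusted p = 2.26e-06 and 3.11e-06). Of 20 tested AP-1 and NF-κB genes, 8 were higher with ILA, 7 higher with GSK805 and 5 did not pass (median 0.12). Bcl3, a nuclear partner of NF-κB p50 and p52, was 3.48-fold higher with ILA and Fosl2, an AP-1 factor that restrains the Th17 programme, 2.12-fold, while Fosl1 was 1.66-fold higher with GSK805 (adjusted p = 1.12e-06, 3.45e-07 and 3.17e-06).

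**Figure D3:**
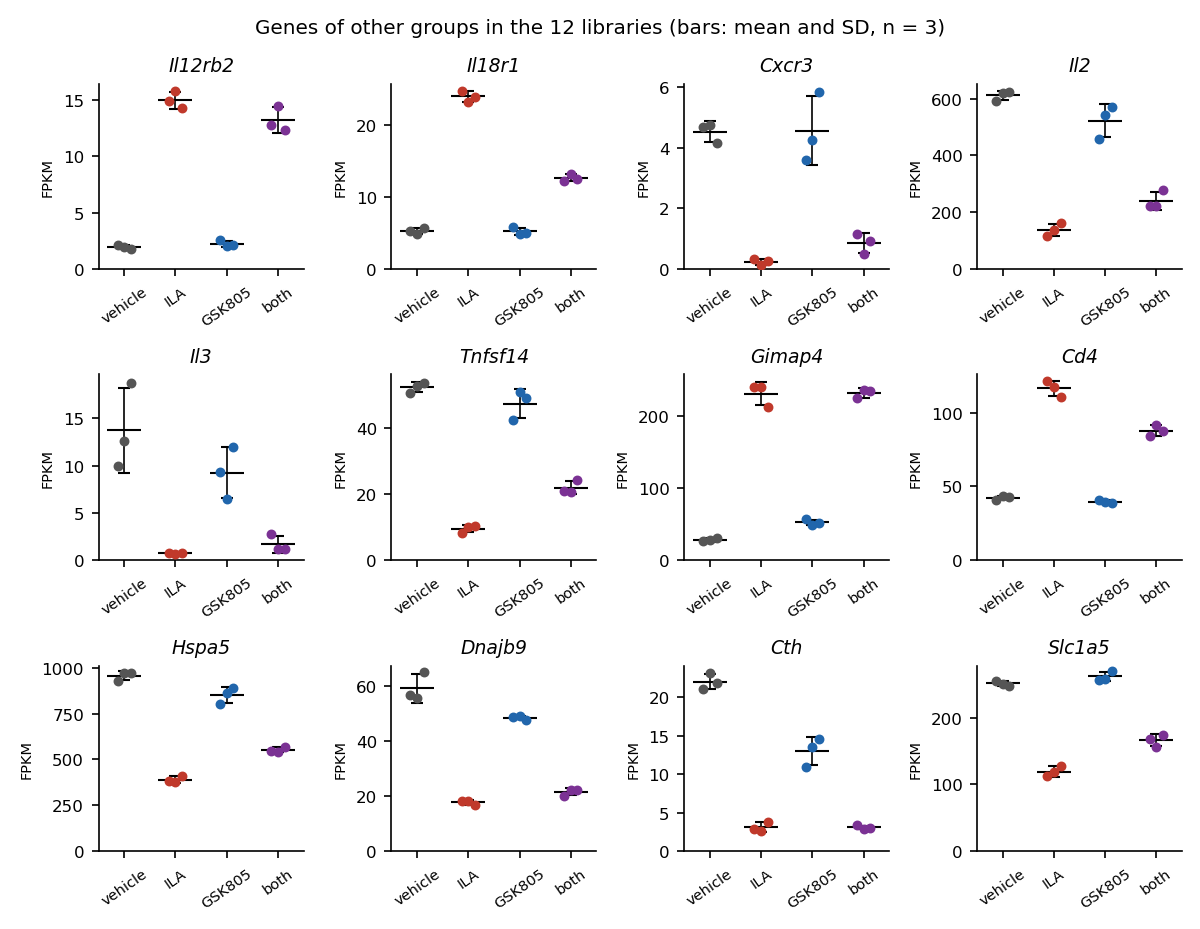
FPKM of 12 genes of T helper, T cell receptor, endoplasmic reticulum and amino acid groups in each of the 12 libraries, by group (vehicle, ILA, GSK805 and both compounds). Points are libraries and bars show the mean and SD of 3. For Il12rb2, Il18r1, Cxcr3 and Slc1a5 the GSK805 libraries sit near vehicle and the ILA libraries apart from both.

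Genes of protein folding in the endoplasmic reticulum were almost uniformly higher with GSK805. Of 19 genes of endoplasmic reticulum (ER) chaperones and the unfolded protein response, 18 were higher with GSK805 and 1, Edem1, was higher with ILA (median log2 difference -0.90). Hspa5, which encodes the chaperone BiP, stood at 380.0, 378 and 412 FPKM with ILA, 802, 863 and 889.9 FPKM with GSK805 and 929.5, 972 and 972 FPKM with vehicle (2.18-fold between the compounds, log2 -1.12, SE 0.0461, adjusted p = 1.29e-08). Each ILA library held less than every GSK805 and every vehicle library. Dnajb9, a co-chaperone of BiP, stood at 18.4, 18.4 and 16.7 against 48.9, 49.1 and 47.9 FPKM (2.64-fold, adjusted p = 2.39e-08). Manf, a secreted ER stress factor, and Hyou1, an ER chaperone, were 2.26-fold and 2.25-fold higher with GSK805 (adjusted p = 2.4e-08 and 8.87e-08). Xbp1, a transcription factor of this response, differed less, with means of 116 and 139.9 FPKM (1.21-fold, adjusted p = 3.81e-05). Edem1, which directs misfolded proteins to degradation, had means of 40.9 and 36.1 FPKM (1.13-fold, adjusted p = 0.00527).

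The ER stress response element, read as CCAAT, any 9 bases and CCACG, to which NF-Y and ATF6 bind, was searched on both strands in the 250 bases before the RefSeq starts of these genes, since 18 of the 19 differed in the same direction. It was found before any start of 8 of the 17 genes with an entry (47.1%) and in 37 of all 32851 promoters, counted singly (0.113%). The list holds genes of the response for which the element is named, so its share does not bear on the 2 compounds. A match is a description of the letters and not of binding. All 9 elements in these 8 genes are given, beyond the rule for sequences, with their GRCm38.p6 positions, written 5′ to 3′ along the strand that carries the element, with capitals for the fixed letters.
Hspa5 (chr2:34772025-34772043, + strand): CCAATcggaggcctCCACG
Hsp90b1 (chr10:86705638-86705656, - strand): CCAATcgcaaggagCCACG
Hsp90b1 (chr10:86705533-86705551, + strand): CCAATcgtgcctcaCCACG
Calr (chr8:84847075-84847093, + strand): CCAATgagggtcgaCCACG
Canx (chr11:50325800-50325818, - strand): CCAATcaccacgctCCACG
Pdia6 (chr12:17266491-17266509, + strand): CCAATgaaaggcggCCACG
Dnajc3 (chr14:118937827-118937845, + strand): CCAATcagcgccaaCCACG
Creld2 (chr15:88819520-88819538, - strand): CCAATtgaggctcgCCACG
Syvn1 (chr19:6046532-6046550, + strand): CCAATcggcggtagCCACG
Hsp90b1 holds 2 of them. The Hspa5 element lies before the RefSeq start but inside the longer first exon of Hspa5 in GENCODE vM21, and the other 8 sites overlap no annotated exon. Of the 8 genes that hold the element, 7 differed by log2 -1.12 (Hspa5), -0.99 (Hsp90b1), -0.58 (Calr), -0.59 (Canx), -0.93 (Pdia6), -0.74 (Dnajc3) and -1.09 (Creld2), while Syvn1 had means of 32.3 FPKM with ILA and 65.7 FPKM with GSK805. Dnajb9, which differed by -1.40, has no exact match in its window. Manf and Hyou1 had no entry.

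The amino acid response, run by the factor ATF4, leaned the same way. Of 27 tested genes, 19 were higher with GSK805, 4 higher with ILA (2 with median centring) and 4 did not pass (median -0.32). Cth, an enzyme of cysteine synthesis, stood at 2.83, 2.63 and 3.82 against 10.9, 13.6 and 14.5 FPKM, and vehicle was above both at 21.2, 23.1 and 21.9 FPKM (3.43-fold between the compounds, adjusted p = 2.79e-07). Slc1a5, a glutamine transporter, stood at 112, 118 and 127 against 257, 259 and 270.2 FPKM (2.19-fold, adjusted p = 2.23e-08). Atf4 itself had means of 402 and 470.0 FPKM (1.17-fold higher with GSK805, adjusted p = 0.000121), whereas Asns, a standard target, did not pass. Ddit4, an inhibitor of mTORC1, went towards ILA at 158, 152 and 154 against 80.7, 72.4 and 68.3 FPKM (2.09-fold, adjusted p = 3.06e-07). Of 17 cytosolic aminoacyl-tRNA synthetases, 15 were higher with GSK805 (median -0.36), and Hars and Wars differed most, 1.51-fold and 1.45-fold (adjusted p = 1.64e-05 and 5.02e-05).

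Heat shock genes were split by gene. Of 12 heat shock genes, 8 were higher with GSK805, 3 higher with ILA and 1 did not pass, with a median of -0.23 and a mean of 0.03. The inducible chaperones Hspa1a (10.03, 11.3 and 7.73 against 1.86, 2.44 and 1.36 FPKM) and Hspa1b were 3.71-fold and 3.7-fold higher with ILA (adjusted p = 4.99e-06 and 6.68e-06), with the reservation that these copies are nearly identical and their reads can be exchanged. Hsph1 and Hsp90aa1 were 1.78-fold and 1.69-fold higher with GSK805 (adjusted p = 2.33e-07 and 5.19e-09). Of 14 tested genes of the NRF2 oxidative stress response, 8 were higher with GSK805, none was higher with ILA (1 with voom on recovered reads and without ILA replicate 3 or GSK805 replicate 1) and 6 did not pass (median -0.45). Srxn1, which repairs peroxiredoxins, was at 7.51, 6.28 and 6.92 against 19, 17.5 and 16 FPKM, Hmox1, haem oxygenase, was 1.83-fold and Prdx1, a peroxiredoxin, 1.74-fold higher with GSK805 (adjusted p = 6.01e-07, 3.31e-05 and 7.36e-07).

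In metabolism, 13 of 25 genes of glycolysis and hypoxia were higher with ILA, 5 higher with GSK805 and 7 did not pass (median 0.17). Gpi1, the second enzyme of glycolysis, stood at 86.2, 86.4 and 85.3 against 51.3, 47.6 and 44.6 FPKM (1.78-fold, adjusted p = 3.87e-07), while Pgk1 and Pkm were 1.19-fold and 1.23-fold higher with GSK805 (adjusted p = 0.000371 and 1.03e-05). Of 22 tested cholesterol synthesis genes, 13 were higher with ILA, 1 higher with GSK805 and 8 did not pass (median 0.26). Srebf2, which regulates the pathway, was at 55.2, 57.9 and 56.8 against 36.4, 34 and 35.6 FPKM (1.59-fold, adjusted p = 1.06e-07). In fatty acid synthesis, 5 of 10 tested genes were higher with ILA and 4 higher with GSK805 (median 0.31), and its enzymes parted widely. Scd2, a desaturase, was at 21.2, 21.3 and 19.8 against 4.59, 4.79 and 5.51 FPKM (3.65-fold higher with ILA, adjusted p = 1.92e-08). Acly, which makes cytosolic acetyl-CoA, was at 57, 60.1 and 61.5 against 143, 150.5 and 157 FPKM (2.5-fold higher with GSK805, adjusted p = 3.98e-09), below vehicle (227 FPKM) with both compounds.

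Genes of ribosomal proteins and genes of ribosome biogenesis differed in opposite directions between the compounds, and the 2 lists stood differently to vehicle. All 21 genes of the Myc and ribosome biogenesis list were higher with GSK805 (median -0.53), with Dkc1, the pseudouridine synthase of ribosomal RNA, at 19.1, 21.1 and 23.3 against 34.4, 38.1 and 43.5 FPKM (1.79-fold, adjusted p = 1.39e-05) and Myc 1.32-fold higher (adjusted p = 0.00223). Vehicle means were 39.5 FPKM for Dkc1 and 126 FPKM for Myc, near those of GSK805 (38.7 and 129 FPKM) and above those of ILA (21.2 and 98.2 FPKM). The ILA mean was below the vehicle mean for every gene of this list. In the share of FPKM given below for ribosomal proteins, ILA was the group near vehicle. Of 78 tested genes of ribosomal proteins, 65 were higher with ILA, none was higher with GSK805 and 13 did not pass (median 0.30). Under the other scalings 48 to 68 of them were higher with ILA and at most 3 higher with GSK805, the last after quantile normalization, and the biogenesis list kept its count of 21. The 80 genes together took 13.6 ± 0.194% of all FPKM with ILA, 11.6 ± 0.155% with GSK805 and 13.8 ± 0.431% with vehicle (SD, n = 3, exact permutation p = 0.1 for ILA against GSK805, two-sided, the smallest that 3 against 3 allows). The 50 most abundant genes took 22.8 ± 0.405% and 19.9 ± 0.0461% (exact permutation p = 0.1, two-sided). Ribosomal protein genes such as Rplp0 (means of 2476 FPKM with ILA and 2050 FPKM with GSK805) are among these 50, so the 2 shares are not separate measurements. Reads of ribosomal protein genes can be shared with their many pseudogenes, which makes single values of this family uncertain.

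**Figure D4:**
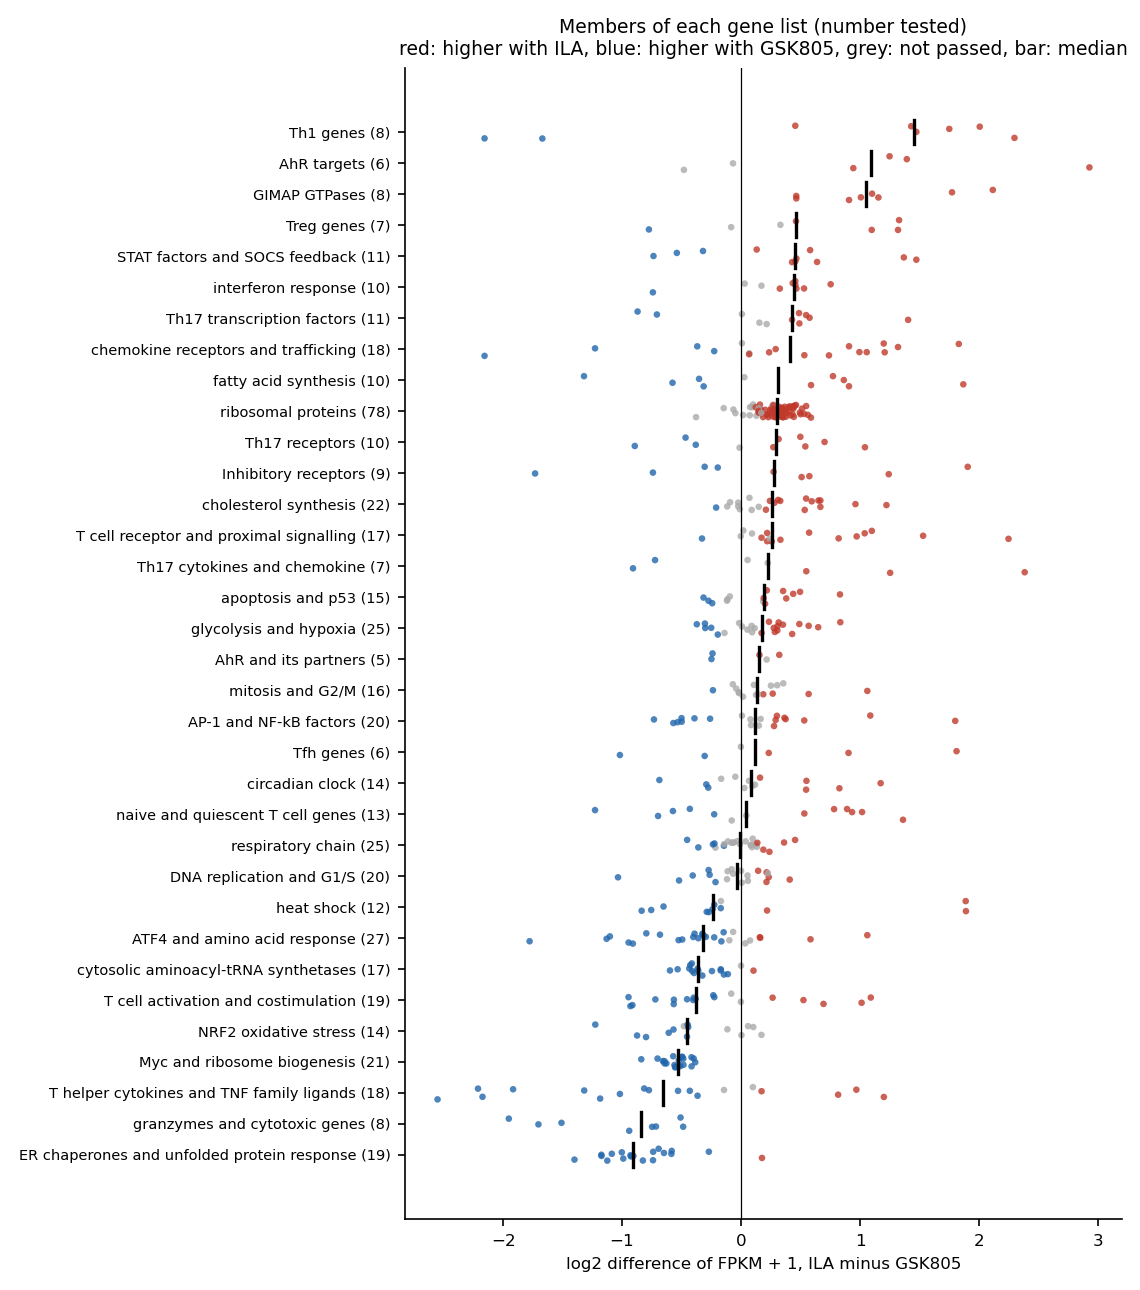
Log2 difference of FPKM + 1 (ILA minus GSK805, horizontal axis) of every tested member of 34 gene lists, ordered by list median (black bar), with the number tested in brackets. Red points were higher with ILA, blue higher with GSK805 and grey not passed. Th1 genes, AhR targets and GIMAP GTPases have the highest medians and the ER list the lowest on this scale (after quantile normalization and with voom the granzyme and cytotoxic list is lower, at -0.963 against -0.886 and -1.14 against -0.922), and ribosomal proteins and ribosome biogenesis lie on opposite sides of 0.

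For some genes vehicle lay between the compounds, a pattern that was looked for after the values were seen. Among the 158 genes picked by the naming rules, 24 had all 3 ILA libraries above all 3 vehicle libraries and those above all 3 GSK805 libraries, and 10 had the reverse order. Over all 13213 genes these orders were held by 2.24% and 3.11%. Most of the 158 genes were picked for a large difference between the compounds, so these counts are no more than a description. Ctla4, Asb2 and Rbpms2 were of the first kind, with Rbpms2 at 42.7 FPKM with ILA, 13.6 FPKM with vehicle and 5.17 FPKM with GSK805. Nr4a1 stood at 194, 229 and 232 FPKM with vehicle, between the libraries of the 2 compounds given above. Gpr183 was, with ILA, vehicle and GSK805, at 6.2 ± 0.37, 2.66 ± 0.332 and 1.03 ± 0.153 FPKM (SD, n = 3). Among those of the second kind were Tnfsf4, Rgs16, Tgfbr1, Egr2, Pdcd1, Pim1, Slc1a5, Hsph1 and Prdx1. The order asks only that libraries do not overlap. For Pdcd1, Pim1 and Slc1a5 GSK805 was not called against vehicle (limma adjusted p = 0.321, 0.561 and 0.441). Tnfsf4 was at 13.3 ± 1.26 FPKM with ILA, 34.9 ± 1.61 FPKM with vehicle and 63.6 ± 5.73 FPKM with GSK805, and Tgfbr1 at 5.49 ± 0.332, 9.04 ± 0.423 and 11 ± 0.562 FPKM (SD, n = 3). With both compounds Tnfsf4 stood at 23.9 ± 2.18 FPKM and Ctla4 at 111 ± 9.58 FPKM, between the values of each alone.

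**Figure D5:**
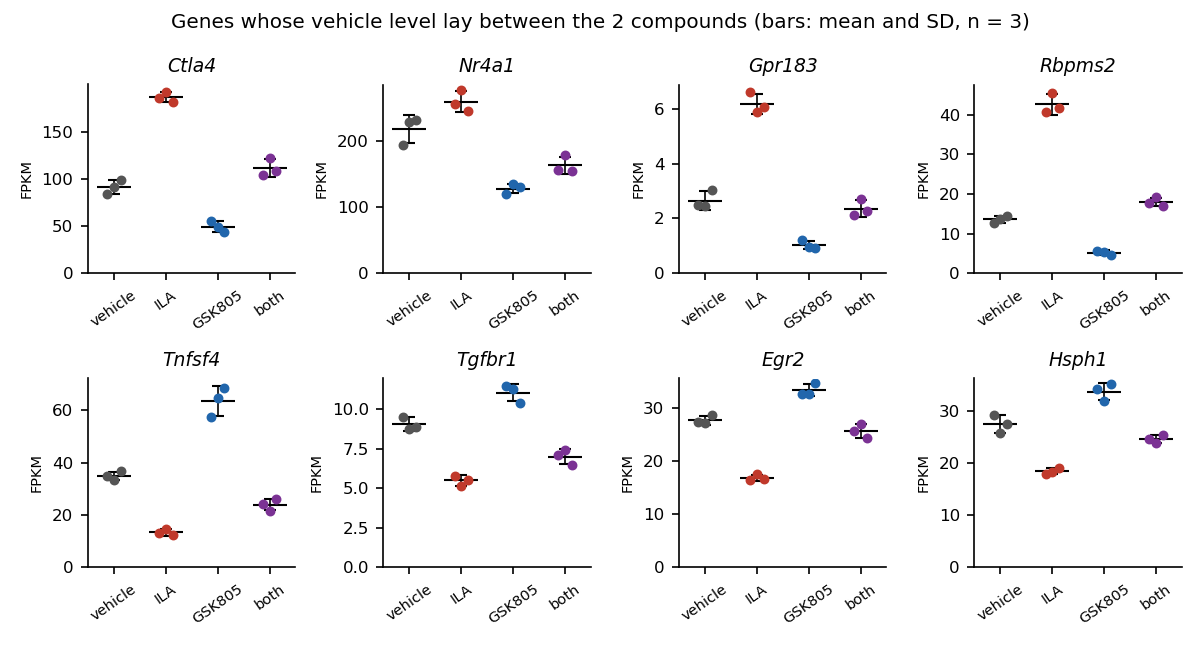
FPKM of 8 genes whose vehicle libraries lay between those of the 2 compounds, in each of the 12 libraries by group. Points are libraries and bars show the mean and SD of 3. In the upper row (Ctla4, Nr4a1, Gpr183 and Rbpms2) ILA is above and GSK805 below vehicle, and in the lower row (Tnfsf4, Tgfbr1, Egr2 and Hsph1) the order is reversed.

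Genes that the compounds did not separate were named by a further rule: no call between ILA and GSK805, a 95% interval within the same 25%, and a call against vehicle in the same direction for each compound, against a background of 58.6% of genes called for ILA and 23.0% for GSK805. Both of those comparisons use the same 3 vehicle libraries. Besides Il17f, the genes with the largest shared difference from vehicle were Gad1, Rab26os, Tlr1, Atf3, Bcl2a1d, Cdkn1a and Frat2. For 3 of them the absence of a call did not hold under every alternative: Cdkn1a was called higher with GSK805 with median centring (adjusted p = 0.0408) and with GC content and length trends removed (0.00442), Frat2 likewise with those trends removed (0.0449), and Atf3 was called higher with ILA without ILA replicate 3 (0.0326). Gad1, which encodes a glutamate decarboxylase, had means of 1.34 FPKM with ILA, 1.28 FPKM with GSK805 and 4.12 FPKM with vehicle. Cdkn1a, the cell cycle inhibitor p21, had 44.6, 48.4 and 79.6 FPKM, and Atf3, a stress-induced factor, 9.91, 9.27 and 17.5 FPKM. Tlr1, a Toll-like receptor, was above vehicle with both compounds, at 5.71, 5.51 and 2.79 FPKM. Bcl2a1d has near-identical copies, and its value is uncertain.

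Reads were counted by a program whose treatment of strand the sources used here do not give, and 43 of the 158 named genes share exonic bases with a gene on the opposite strand, among them Il21, Rora, Maf, Ahr, Cyp2s1, Foxp3, Il12rb2 (with Serbp1), Fyb, Satb1, Hif1a, Xcl1, Rgs16, Selp, Dnajb9, Manf, Bcl3, Pim1 and Gpi1. If strand was ignored in counting, reads of the partner cannot be told apart for these genes.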

How the data were processed

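RNA from 12 Th17 cell libraries (3 each of vehicle, ILA, GSK805 and both compounds) was analysed, and the ILA and GSK805 groups were compared. The authors deposited FPKM values per gene for each library. Per the submitters' processing notes, FastQC 0.11.2, Bowtie (version not stated) and the build mm10 were used, and the counting program, gene models and strand setting are not stated in any source used. Members and gene lists were chosen with earlier results of these data known.

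Genes whose mean reached 1 FPKM with either compound were tested with limma 3.58.1 in R 4.3.3 on log2(FPKM + 1), with 1 mean per group over all 12 libraries, trend and robust moderation, and Benjamini-Hochberg adjustment over the 13213 genes at 0.05. Every adjusted p in the text comes from this model unless another is named. Folds are 2 to the power of the log2 difference. Gene positions, exon lengths and overlaps came from GENCODE vM21. Read numbers were recovered from FPKM with those exon lengths: 98.8 to 99.1% of values under 200 reads came out whole within 0.1. Bases before gene starts are RefSeq's for GRCm38.p6. The same procedure was tested on simulated data.

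Genes were named by rule: a fixed set of Th17, AhR, Treg and ER genes, the 10 largest differences each way among called genes without overlap and with a mean of at least 5 FPKM (unnamed, ribosomal and receptor segment genes left out), up to 4 called members per list with the largest difference, up to 8 genes that the compounds did not separate, and the 3 nearest either side of the filter. Other members (such as Tgfbr2, Ltb, Lif, Stat5a, Stat5b, Atf4, Runx3, Gpr15 and Itga4) were named after their values were seen. A few genes that these rules pick are not reported here. Replicates 1 to 3 were not treated as pairs, since deviations of same-numbered libraries correlated by 0.0522 to 0.0783. The alternatives were other moderation, scalings, filters, pseudocount, libraries, a replicate block, voom on recovered reads and leaving out each library.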

Additional observations from a re-analysis of the deposited data

How the results depend on the processing

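Of 164 genes followed over 17 alternatives 151 were called, and 149 of these kept call and direction under every alternative that tested them. The other 2 (Il9 among them) lost their call at least once, and none of the 151 turned direction. The numbers of genes called lay between 2562 (mean of at least 5 FPKM) and 3843 (voom) higher with ILA, and between 2991 and 4101 (GC content and length trends removed) higher with GSK805. Genes at least 2-fold higher numbered 863 with ILA and 268 with GSK805 at a pseudocount of 0.1, and 938 and 285 with voom on recovered reads, against 479 and 166. Neither alternative adds a full FPKM to each value. With a replicate block 3700 genes were higher with ILA and 3460 with GSK805, and 1 of the genes followed lost its call (adjusted p = 0.0607). Each library correlated best with its own number in the other group, which is a hint from the data and not from the design. Of genes without a call, Cdkn1a (adjusted p = 0.0408 with median centring and 0.00442 with GC content and length trends removed), Frat2 (0.0449 with those trends removed), Atf3 (0.0326 without ILA replicate 3), Ahr (0.0165 with voom and 0.00953 without ILA replicate 3) and Nqo1 (0.0425 after quantile normalization and 0.0487 with voom) gained one. Genes without a call and with a difference near 0 also changed sign. Gad1 was at -0.0832 after quantile normalization and -0.0137 with median centring, Tlr1 at -0.0468 and -0.00481 under the same, Bcl2a1d at -0.0303 with median centring and Atf3 at -0.012 with GC content and length trends removed. Leaving out each library gave -0.000615 to 0.0913 for Il17f, -0.0374 to 0.131 for Gad1, -0.116 to 0.0698 for Rab26os and -0.0102 to 0.0522 for Bcl2a1d, all as log2 differences. Of 68 counts of list members, 22 moved outside 1.5 times in at least 1 alternative. A minimum of 5 FPKM, under which fewer genes are tested, left 8 cholesterol synthesis genes (13 in the main analysis), 3 interferon response genes (7) and 3 Th17 receptors (6) higher with ILA and 5 granzyme and cytotoxic genes (8) higher with GSK805. Respiratory chain genes higher with GSK805 numbered 10 with median centring and 9 with GC content and length trends removed, against 5 in the main analysis.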

Other observations

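Of 16 interferon response genes, 6 were under the filter (Ifit1, Oas1a, Oasl2, Rsad2, Usp18 and Rtp4). Of the 10 tested, 7 were higher with ILA (5 after quantile normalization) and 1, Ifit3, higher with GSK805 (median log2 difference 0.45). Isg15 and Irf9 did not pass. Irf7, Mx1 and Zbp1, among the 7, reached a mean of 1 FPKM only with ILA. Zbp1, a sensor of Z-form nucleic acids, was at 2.62, 1.72 and 2.35 FPKM with ILA and 1.05, 0.665 and 1.01 FPKM with GSK805 (limma adjusted p = 0.000758). Ifit3 was at 1.06, 0.975 and 1.19 against 1.84, 2.9 and 2.76 FPKM (adjusted p = 0.00138). Of 20 genes of DNA replication, 5 were higher with ILA, 6 higher with GSK805 and 9 did not pass (1 to 6 higher with ILA under the alternatives), a split in which Ccne2, which encodes a cyclin of the entry into S phase, was 2.05-fold higher with GSK805 (adjusted p = 1.45e-05). Of 16 genes of mitosis, 4 were higher with ILA (7 with voom on recovered reads), 1 higher with GSK805 and 11 did not pass, and Ccnb2, which encodes a mitotic cyclin, was 2.09-fold higher with ILA (adjusted p = 2.93e-05). Of 25 respiratory chain genes, 5 were higher with ILA, 5 higher with GSK805 and 15 did not pass, and after median centring 10 were higher with GSK805.

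Of 14 tested clock genes, 5 were higher with ILA and 3 higher with GSK805. Dbp, an output factor of the clock, was at 2.91, 2.63 and 3.35 FPKM with ILA and 0.856, 0.877 and 0.541 FPKM with GSK805 (2.26-fold, adjusted p = 1.1e-05). Nfil3, which competes with DBP for the same sites, was at 9.34, 11.4 and 12.1 against 17.2, 17.9 and 19.3 FPKM (1.61-fold higher with GSK805, adjusted p = 7.96e-05). Of 15 apoptosis and p53 genes, 8 were higher with ILA and 3 higher with GSK805, and Bbc3, which encodes PUMA, was 1.78-fold higher with ILA (adjusted p = 7.38e-06).

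The processed pseudogene Gm10095 on chromosome 12 stood at 483, 0.191 and 52.8 FPKM in the 3 GSK805 libraries and 4.21, 0.22 and 0.696 FPKM in the 3 ILA libraries, and did not pass (adjusted p = 0.2). It was picked out after its values were seen.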
